A study of Mus musculus with 4 samples.

Results

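The genes described are those of the MCM helicase and of the factors that load and activate it: *Mcm2*, *Mcm3*, *Mcm4*, *Mcm5*, *Mcm6*, *Mcm7*, *Mcm10*, *Cdc45*, *Cdc6* and *Cdt1*. They were chosen by name and not by their values, although earlier results of these data were known. All 10 were found among the 17104 genes of the deposited table. They were measured by RNA-seq of poly(A) RNA in leukemic stem cells (LSCs) of a mouse model of acute myeloid leukemia (AML), in 2 CD37 fl/fl and 2 CD37 -/- libraries. CD37 is a tetraspanin, a membrane protein with several transmembrane helices, and the comparison asks how its loss alters the LSC transcriptome.

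In both groups, lineage-negative bone marrow cells of mice carrying CD37 fl/fl and a tamoxifen-inducible Cre (Rosa26-CreERT2) had been transduced with a retrovirus. It carried the fusion oncogene MLL-AF9 and YFP. The transduced cells were transplanted into sublethally irradiated C57 mice, and the paper describes its purchased C57 mice as male. Primary recipients were given tamoxifen, which turns CD37 fl/fl into CD37 -/-, or corn oil, and YFP+, c-kit+ cells were sorted from bone marrow of the secondary transplantation at week 6. Tamoxifen and the CD37 genotype therefore cannot be told apart in these libraries. The labels call the replicates independent without saying whether each is 1 animal or a pool, so that p-values measure the spread between these libraries only.

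The MCM2-7 proteins form a ring of single copies that encircles DNA and is the motor of the replicative helicase. In G1 phase, CDC6 and CDT1 act with the origin recognition complex to load the ring onto origins, which licenses them for a single round of replication. In S phase, CDC45 and the GINS complex join the ring to make the active helicase, and MCM10 takes part in that step. Transcription of many of these genes is known to be driven by E2F factors as cells enter the cycle.

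Because E2F sites are a known feature of this gene family, the promoter windows of the members (250 bases before to 50 bases after the gene start, RefSeq on GRCm38.p6) were searched for the letters TTTCGCGC, TTTGGCGC, TTTCCCGC and TTTGCCGC on both strands. An entry was found for 9 of the 10 members, all but *Mcm4*. At least 1 match was present for 6 of these 9 (66.7%), against 2.61% of the 27025 genes with a window and 5.57% of the 4689 of them that were tested for expression. The windows of *Mcm2*, *Cdc45* and *Mcm10* held none of these letters. For each of the 6 members, 1 match is shown with its flanks in the direction of the gene, the match in capitals. The 12-base matches of *Mcm5* and *Mcm6* hold TTTCGCGC and TTTGGCGC, one on each strand and overlapping.
Mcm3, chr1:20820263-20820283, minus strand: ttgggaagtTTTGGCGCcaag
Mcm5, chr8:75109347-75109376, plus strand: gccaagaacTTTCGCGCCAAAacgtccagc
Mcm6, chr1:128359795-128359824, minus strand: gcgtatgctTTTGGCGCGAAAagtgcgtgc
Mcm7, chr5:138171851-138171876, minus strand: gtgacgacgTTTCGCGCcaatttcgg
Cdc6, chr11:98908004-98908029, plus strand: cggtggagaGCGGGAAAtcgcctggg
Cdt1, chr8:122568038-122568063, plus strand: aactaccttTTTGGCGCcatggcgca

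The match of *Mcm6* began at position -110 and that of *Mcm5* at position -153 relative to the RefSeq gene start. Those of *Mcm3*, *Mcm7* and *Cdt1* lay after that start. The match of *Cdc6* began at position -138, but it lies inside the gene span printed below, which begins at 98907801. Those printed spans are of another annotation, GENCODE M21, and the starts of the 2 annotations can differ. *Mcm3*, *Mcm6* and *Mcm7* each held a further match in the window. A match describes letters only, and binding was not measured. Over all tested genes with a window, the median log2 fold change was 0.17 for the 261 genes with a match and 0.11 for the 4428 without. Among the members with a match, log2 fold changes were 0.84 for *Cdc6*, 0.48 for *Mcm5*, 0.40 for *Mcm3*, 0.21 for *Mcm7* and 0.20 for *Cdt1*. That of *Mcm6*, also with a match, was -0.18, or 0.19 after TPM rescaling. Among those without a match, it was 1.14 for *Mcm2*, 0.06 for *Mcm10* and -0.13 for *Cdc45*. A relation between match and change was not tested.

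The deposited unit is FPKM, fragments per kilobase of gene scaled by sequencing depth, and the kilobases proved to be those of the whole genomic span of each gene, introns included. All 40 values of the members corresponded to whole reads within 0.05 reads, from 355 to 13024 reads per gene and library, so that counting error was at most 5.31%. The library totals implied by the values were 15327373 and 17327722 reads for CD37 fl/fl and 17740451 and 22627470 reads for CD37 -/-. Of the 17104 genes, the 6761 with a mean FPKM of at least 1, all 10 members among them, were tested with limma on log2(FPKM + 1), where the added 1 shrinks the fold changes of weakly expressed genes. *Cd37* itself was lower without overlap in CD37 -/- LSCs, at 56.6 and 46.8 FPKM against 23.2 and 22.9 FPKM (adjusted p = 0.104). *Kit*, the sorting marker, was at 0.170 and 0.325 against 0.327 and 0.434 FPKM, under the level tested (213 and 460 against 474 and 804 reads). *Hoxa9*, a target of MLL fusions, had an FPKM between 38.8 and 47.2 in all 4 libraries. Of the other progenitor and MLL-AF9 markers, the granule enzyme gene *Mpo* was lower without overlap (80.3 and 51.6 against 34.4 and 20.8 FPKM, adjusted p = 0.141). *Ptprc*, which encodes CD45, was higher (0.765 and 0.841 against 1.78 and 2.93 FPKM, adjusted p = 0.117), as was *Meis1* (0.512 and 0.573 against 0.884 and 0.851 FPKM, under the level tested). The 7 erythroid markers in the table were all higher without overlap in CD37 -/- LSCs, with a summed FPKM of 60.9 and 5.12 against 576 and 143. Their summed share of the reads was at most 0.0702%, and *Epb42* was at 0 in CD37 fl/fl replicate 2. Late neutrophil markers summed to 18295 and 3580 against 18337 and 10226 FPKM, and 3 of 6 were higher without overlap. Macrophage and dendritic cell markers summed to 252 and 34.1 against 14.4 and 49.7, with 0 of 8 free of overlap. T and NK cell markers summed to at most 0.176, with 2 of 4 higher without overlap and *Cd3g* and *Cd247* at 0 in both CD37 fl/fl libraries. Of all tested genes, 38.2% were higher and 23.7% lower without overlap. The part of these cells in the members' values was not tested.

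At an adjusted p under 0.05 (limma, Benjamini-Hochberg over all tested genes), 0 of the 10 members and 0 of the 6761 genes (0%) differed between the genotypes, and limma-voom on the recovered reads gave 0 as well. At an unadjusted p under 0.05, 3 members were higher in CD37 -/- LSCs (*Mcm4*, *Mcm2* and *Cdc6*), against 1088 of all tested genes (16.1%), and 0 were lower, against 538 (7.96%). Both CD37 -/- libraries lay above both CD37 fl/fl libraries for 6 members, against 38.2% of tested genes, and below them for 1 member, *Mcm6*, against 23.7%. By sign alone, 8 members were higher and 2 lower, beside 3978 higher and 2783 lower of all 6761 tested genes. The members' counts were 7 and 3 after quantile normalization or upper quartile division and 10 and 0 after TPM rescaling. Signs of all tested genes under these scalings are not given here. The median log2 fold change of the 10 members was 0.30, beside 0.11 for all tested genes, and it was 0.13 after upper quartile division and 0.69 after TPM rescaling. Of the tested genes at an unadjusted p under 0.05, 66.9% were higher in CD37 -/- LSCs. That share was 47.5% after quantile normalization, 44.0% after division by the upper quartile and 91.4% after rescaling to the same sum (TPM), which moved the median of all tested genes to -0.02, -0.03 and 0.49. In bulk RNA, fewer cells that express a gene and less RNA per cell cannot be told apart.

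**Figure D1:**
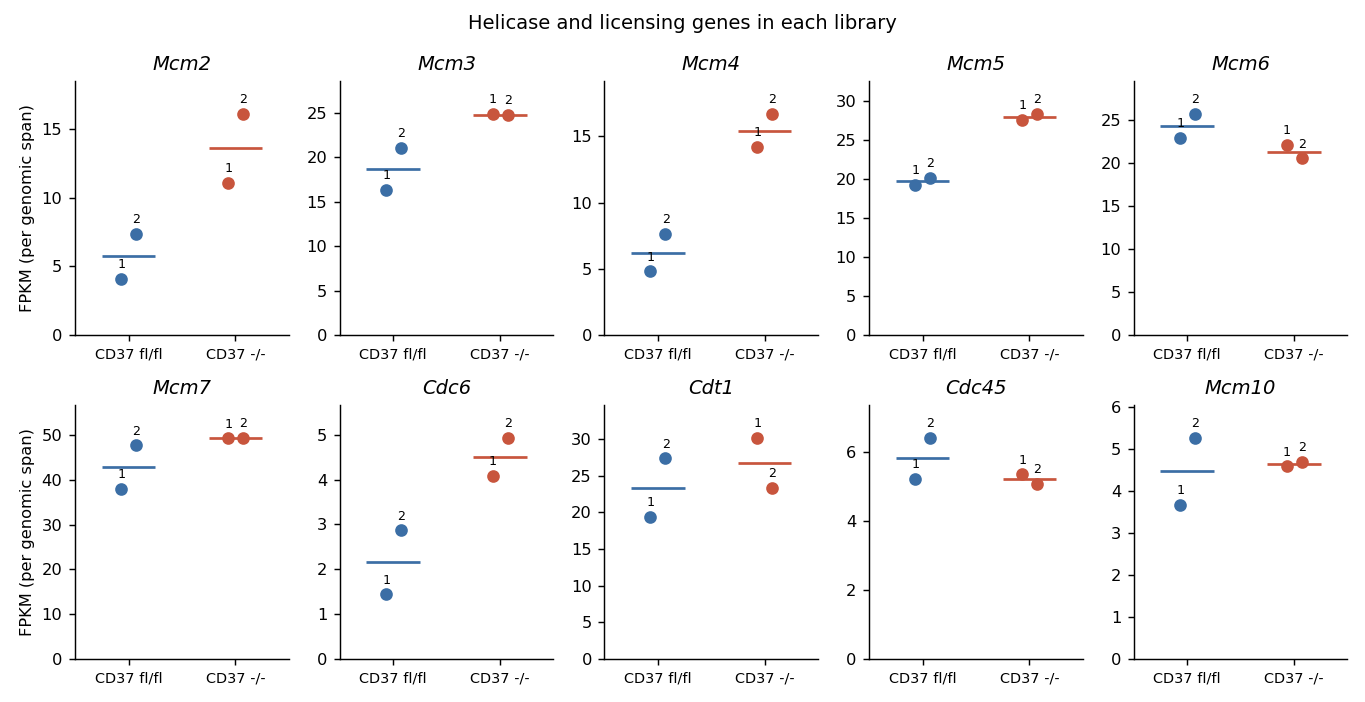
FPKM per genomic span (vertical axes, each from 0) of the 10 genes in the 4 libraries, with points for libraries, marked by replicate number, and lines for group means. *Mcm2*, *Mcm4* and *Cdc6* were about 2-fold higher in CD37 -/- LSCs, whereas *Mcm6* was slightly lower (higher after TPM rescaling) and *Cdt1*, *Cdc45* and *Mcm10* overlapped between the groups.

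Within the ring, *Mcm4* had the largest log2 fold change. *Mcm4* (ENSMUSG00000022673, chr16:15623897-15637400, minus strand, GRCm38) encodes a subunit whose amino-terminal tail is a known target of the CDC7 kinase. Its FPKM was 4.81 and 7.62 in CD37 fl/fl replicates 1 and 2 and 14.2 and 16.7 in CD37 -/- replicates 1 and 2. Both CD37 -/- libraries were thus well above both controls, and the group means differed 2.48-fold. The log2 fold change was 1.21 (SE, standard error, 0.27), with an unadjusted p of 0.00431 and an adjusted p of 0.105. Over the 15 alternatives it stayed between 0.93 and 1.68, and the adjusted p between 0.0611 and 0.303. *Mcm4* was the member that kept an unadjusted p under 0.05 whichever library was left out.

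*Mcm2* (ENSMUSG00000002870, chr6:88883474-88898780, minus strand), whose protein also binds histones H3 and H4 at the fork, had an FPKM of 4.12 and 7.36 in CD37 fl/fl and of 11.1 and 16.1 in CD37 -/- LSCs. The groups did not overlap, but the replicates of each group also lay well apart, with 5.74 ± 2.29 against 13.6 ± 3.52 (SD, n = 2). The log2 fold change was 1.14 (SE 0.32), with an unadjusted p of 0.0127 and an adjusted p of 0.135 (0.0756 to 0.45 over the alternatives, with log2 fold changes from 0.78 to 1.61). Without CD37 fl/fl replicate 1, or without CD37 -/- replicate 2, the unadjusted p of *Mcm2* was no longer under 0.05.

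*Mcm5* (ENSMUSG00000005410, chr8:75109569-75128439, plus strand), which with MCM2 forms the gate through which the ring opens, had the smallest difference between the CD37 fl/fl replicates of all members. Its FPKM was 19.3 and 20.2 in CD37 fl/fl, against 27.6 and 28.3 in CD37 -/- LSCs. The gap between the groups was far wider than the spread within them, with a log2 fold change of 0.48 (SE 0.22) and an adjusted p of 0.241. limma moderates the variance of each gene toward that of genes of like level, and *Mcm5* had an unadjusted p of 0.0745 in that test. This p was under 0.05 without the trend, in the fit of all genes above 0, after quantile normalization and after TPM rescaling.

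*Mcm3* (ENSMUSG00000041859, chr1:20802968-20820312, minus strand), the partner of MCM5 in the ring, had an FPKM of 16.3 and 21.03 against 24.9 and 24.8. The CD37 -/- libraries were nearly equal and above both controls, but the controls differed from each other by almost as much as the groups. The log2 fold change was 0.40 (SE 0.24) and the adjusted p was 0.337. *Mcm7* (ENSMUSG00000029730, chr5:138164583-138172422, minus strand), which carries *Mir25*, *Mir93* and *Mir106b* within its annotated span, had the highest FPKM per span of all members, at 38.1 and 47.7 against 49.3 and 49.4. CD37 fl/fl replicate 2 came within a small margin of the CD37 -/- libraries, and the log2 fold change was 0.21 (SE 0.25, adjusted p = 0.630).

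*Mcm6* (ENSMUSG00000026355, chr1:128331590-128359664, minus strand), the ring subunit that contacts CDT1 during loading, went against the other 5 as deposited. Its FPKM was 22.9 and 25.6 in CD37 fl/fl, against 22.0 and 20.5 in CD37 -/- LSCs. The groups did not overlap, but CD37 fl/fl replicate 1 and CD37 -/- replicate 1 were close. The log2 fold change was -0.18 (SE 0.23, adjusted p = 0.639), and it was 0.19 after TPM rescaling, so that the sign of the *Mcm6* difference depends on the scaling.

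Because the 6 subunits assemble in equal number, their shares of the summed ring mRNA were compared within each library, which needs no scaling between libraries. This measure was chosen after the values had been seen. Reads were taken per kilobase of annotated exons, so that genes of different length could be set side by side. Exons of all annotated transcripts were joined for this length, and whether intronic reads were counted is not given in the sources used here. The genomic span was 6.02 times the exon length for *Mcm6*, 2.20 times for *Mcm2* and 1.77 times for *Mcm7*. The order of the shares across genes depends on both. *Mcm6* held the largest share in the CD37 fl/fl libraries, at 34.5% and 32.4%, and held 24.4% and 22.1% in the CD37 -/- libraries. *Mcm4* held 4.54% and 6.03% against 9.83% and 11.3%, and *Mcm2* held 2.28% and 3.40% against 4.51% and 6.36%. For *Mcm6* and *Mcm4* the gap between the groups was wider than the differences between replicates, while for *Mcm2* the gap was narrower than the difference between the CD37 -/- libraries.

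The shares of the other subunits differed less. *Mcm5* held 22.8% and 20.01% against 24.0% and 24.0%, *Mcm3* held 18.9% and 20.4% against 21.2% and 20.6%, and *Mcm7* held 16.9% and 17.8% against 16.1% and 15.7%. None of the 6 shares overlapped between the groups, with 4 higher and 2 lower in CD37 -/- LSCs, but the shares sum to 100% and are not independent of each other. With 2 libraries per group, a two-sided exact permutation test of a share cannot give a p below 0.333. The most and the least abundant subunit, *Mcm6* (*Mcm5* in CD37 -/- replicate 2) and *Mcm2*, differed 15.2-fold and 9.52-fold in CD37 fl/fl, against 5.42-fold and 3.78-fold in CD37 -/- LSCs. The 6 transcripts were thus less unequal in both CD37 -/- libraries. Together they made up 0.172% and 0.205% of the reads in CD37 fl/fl, against 0.232% and 0.240% in CD37 -/- LSCs.

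**Figure D2:**
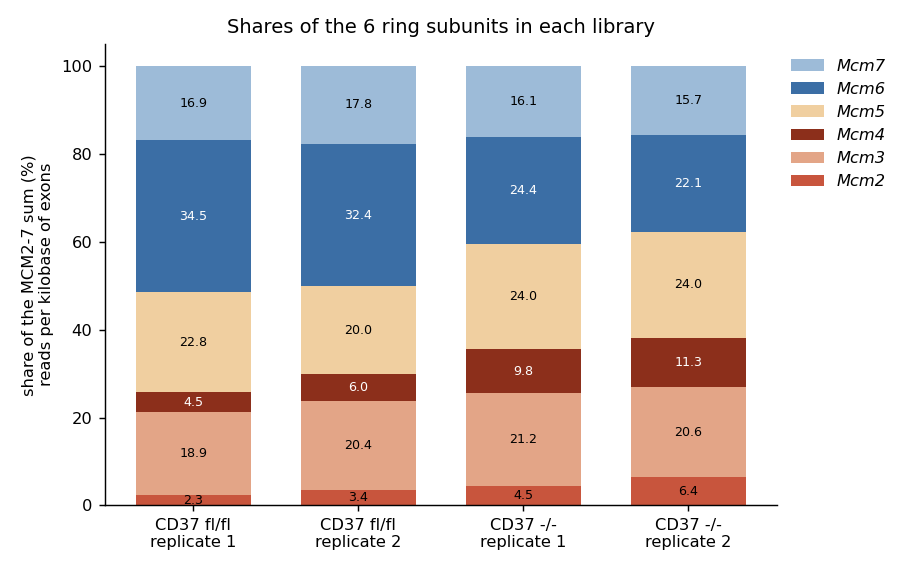
Share of each subunit in the summed reads per kilobase of exons of *Mcm2* to *Mcm7* (vertical axis, percent), with 1 stacked bar per library. The *Mcm6* segment took 34.5% and 32.4% of the CD37 fl/fl bars and 24.4% and 22.1% of the CD37 -/- bars, and those of *Mcm2* and *Mcm4* were wider in both CD37 -/- libraries.

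Of the loading factors, *Cdc6* (ENSMUSG00000017499, chr11:98907801-98923940, plus strand), an ATPase that recruits the ring to the origin recognition complex, had an FPKM of 1.44 and 2.86 in CD37 fl/fl and of 4.07 and 4.93 in CD37 -/- LSCs. The groups did not overlap. The means differed 2.09-fold, and the log2 fold change was 0.84 (SE 0.27), with an unadjusted p of 0.0209 and an adjusted p of 0.151 (0.0837 to 0.515 over the alternatives). The log2 fold change of *Cdc6* was 0.51 without CD37 fl/fl replicate 1 and 1.41 after TPM rescaling, the lowest and highest of the alternatives. Without CD37 fl/fl replicate 1, or without CD37 -/- replicate 2, its unadjusted p was above 0.05, as for *Mcm2*, and it was so too in the fit of all genes above 0.

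*Cdt1* (ENSMUSG00000006585, chr8:122568015-122573554, plus strand), which brings the ring to the origin and is bound by geminin, had an FPKM of 19.3 and 27.3 against 30.1 and 23.3. CD37 -/- replicate 2 lay between the controls. The log2 fold change of *Cdt1* was 0.20 (SE 0.28, adjusted p = 0.683), and it was -0.043 without CD37 fl/fl replicate 1. The annotation places a read-through gene, *Gm20388*, over all 5540 bases of *Cdt1* on the same strand, and how reads shared by both were counted is not given in the sources used here.

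The activation factors showed no separation. *Cdc45* (ENSMUSG00000000028, chr16:18780447-18811987, minus strand), the helicase cofactor, had an FPKM of 5.21 and 6.40 in CD37 fl/fl and of 5.34 and 5.08 in CD37 -/- LSCs. The groups overlapped, and the log2 fold change was -0.13 (SE 0.20, adjusted p = 0.706), or 0.22 after TPM rescaling. *Mcm10* (ENSMUSG00000026669, chr2:4989714-5012791, minus strand), which is not a ring subunit despite its name, had an FPKM of 3.67 and 5.26 against 4.58 and 4.69. Both CD37 -/- values fell between the controls, and the log2 fold change was 0.06 (SE 0.21, adjusted p = 0.882), or -0.11 after quantile normalization and -0.090 after division by the upper quartile.

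CD37 fl/fl replicate 1 had a lower FPKM than replicate 2 for all 10 members, whereas 61.2% of all tested genes were lower in it. Between the CD37 -/- libraries, 6 of 10 members were lower in replicate 1, beside 50.9% of all tested genes. On the log2(FPKM + 1) scale, the difference between the controls was 0.71 for *Mcm2*, 0.67 for *Cdc6* and 0.57 for *Mcm4*, and 0.06 for *Mcm5*. The group difference exceeded both replicate differences for 6 of the 10 members, namely *Mcm2* to *Mcm6* and *Cdc6*, with *Mcm6* lower in CD37 -/- LSCs. The share of all tested genes for which this held was not computed, so the count describes these genes only. Without CD37 fl/fl replicate 1, the number of members at an unadjusted p under 0.05 was 1 (*Mcm4*), and it was likewise 1 (*Mcm4*) without CD37 -/- replicate 2. It was 5 after TPM rescaling, where *Mcm3* and *Mcm5* joined. That scaling brought 2256 of all 6761 tested genes to such a p, against 1626 as reported.

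**Figure D3:**
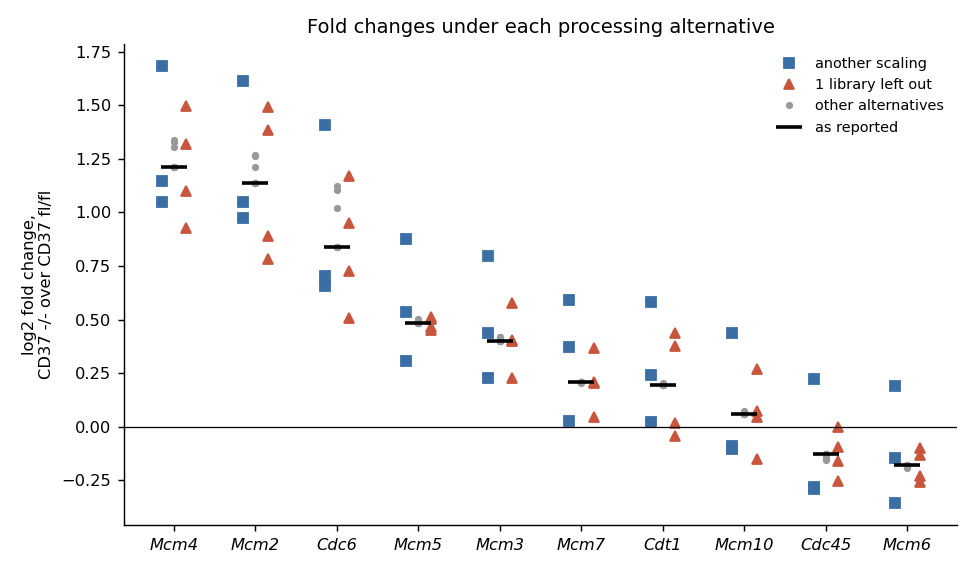
Log2 fold change of each member, CD37 -/- over CD37 fl/fl (vertical axis), as reported (black bars) and under the alternatives of scaling, of leaving 1 library out and of filter or test. *Mcm4*, *Mcm2*, *Cdc6*, *Mcm5*, *Mcm3* and *Mcm7* stayed above 0 throughout, while the values of *Cdt1*, *Mcm10*, *Cdc45* and *Mcm6* lay on both sides of 0.

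In level per kilobase of exons, averaged over the 4 libraries, the order was *Mcm6* (137 FPKM), *Mcm5* (113), *Mcm3* (101), *Mcm7* (81.7), *Cdc45* (49.5), *Cdt1* (44.1), *Mcm4* (40.7), *Mcm2* (21.3), *Mcm10* (13.6) and *Cdc6* (10.3). Of the neighbours in this order, *Mcm7* and *Cdc45* were the pair whose ranges over the libraries did not overlap. The ranges of the other neighbouring pairs overlapped, although *Mcm7* was below *Mcm3*, and *Mcm2* below *Mcm4*, in each of the 4 libraries. The joined exons measured 6956 bases for *Mcm2* and 7692 for *Mcm10*, against 3589 for *Mcm4*. The order thus depends on the annotated length and on whether intronic reads were counted, which is not given. The order of the means differed between the genotypes. *Mcm4* (23.4) lay below *Cdt1* (41.2) and *Cdc45* (52.2) in CD37 fl/fl LSCs and above both (58.1 against 47.1 and 46.9) in CD37 -/- LSCs. *Mcm5* likewise lay below *Mcm6* in CD37 fl/fl (93.2 against 146) and slightly above it in CD37 -/- LSCs (132 against 128). *Mcm4* spanned the widest part of the order, from 18.1 to 62.7 FPKM per exon length. The log2 ratio of *Mcm4* to *Mcm6* per exon length was -2.93 and -2.43 in CD37 fl/fl and was -1.31 and -0.98 in CD37 -/- LSCs.

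Across 6737 tested genes, longer exon length went with higher log2 fold changes (Spearman's rho 0.25, a description across genes that share the same libraries). The median log2 fold change was -0.16 in the quartile of genes with the shortest exon length and 0.24 in the quartile with the longest. *Mcm2* (6956 bases of exons) and *Mcm10* (7692 bases) belong to that longest quartile, with log2 fold changes of 1.14 and 0.06, and *Mcm4* (3589 bases) does not. The part of transcript length in the members' values was not tested.

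Genes that start close to a member on the other strand were read from the same fit. *Prkdc*, the DNA-dependent protein kinase, starts 466 bases from *Mcm4*, and its FPKM was 0.143 and 0.171 against 0.146 and 0.167, which is under the level tested. Its groups overlapped, with 449 and 604 reads against 531 and 771, while *Mcm4* differed 2.48-fold. *Ufd1*, a cofactor in the removal of ubiquitinated proteins, starts 208 bases from *Cdc45* and had an FPKM of 4.73 and 4.19 against 4.29 and 3.77. Its log2 fold change was -0.12 (adjusted p = 0.705), and 0.22 after TPM rescaling.

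*Ap4m1*, a subunit of an adaptor complex for vesicle transport, starts 420 bases from *Mcm7* and had an FPKM of 1.92 and 2.64 against 2.80 and 3.41. Its groups did not overlap, with a log2 fold change of 0.33 (adjusted p = 0.340). The annotated spans of *Mcm7* and *Ap4m1* overlap by 421 bases, those of *Mcm7* and *Cops6* by 64 and those of *Cdc45* and *Ufd1* by 209. The libraries were made with strand marking, but whether counting used the strand is not given in the sources used here.

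A wider list of 31 licensing and firing genes was read from the same table. Of the 30 found, 21 were tested, and 18 of these were higher and 3 lower in CD37 -/- LSCs. Of all 6761 tested genes, 3978 were higher and 2783 lower. The counts of the list were 16 and 5 after quantile normalization and 21 and 0 after TPM rescaling. The median log2 fold change of the 21 was 0.32, or 0.13 after quantile normalization, 0.17 after upper quartile division and 0.74 after TPM rescaling. At an unadjusted p under 0.05, 6 were higher (16.1% of all tested genes were) and 0 were lower, and 0 passed the adjusted p. Without overlap, 13 of the 21 were higher and 0 were lower, beside 38.2% and 23.7% of all tested genes. At least 1 of the E2F-type matches was present in 8 of the 21 genes of the list that had a promoter window (38.1%).

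Of the firing kinases and adaptors, 7 of 7 tested genes were higher (6 of 7 after quantile normalization), beside 3978 of all 6761. At an unadjusted p under 0.05, 4 of the 7 were higher, beside 16.1% of all tested genes. After quantile normalization *Cdc7* and *Topbp1* kept such a p, and *Ticrr* and *Wdhd1* did not. *Topbp1*, a scaffold for firing and for checkpoint signaling, had an FPKM of 1.14 and 2.18 against 3.83 and 5.74, and a log2 fold change of 1.13 (SE 0.28, adjusted p = 0.116). *Cdc7*, the kinase that phosphorylates the ring, had an FPKM of 1.06 and 1.09 against 2.17 and 2.52 (log2 fold change 0.69, adjusted p = 0.115). The controls of *Cdc7* nearly coincided, unlike those of *Topbp1*. *Ticrr*, which helps to bring CDC45 to the ring, had an FPKM of 0.701 and 0.856 against 1.38 and 1.66 (log2 fold change 0.50, adjusted p = 0.162), and *Wdhd1*, which links the helicase to polymerase alpha, had 0.837 and 1.35 against 1.97 and 1.97 (0.52, adjusted p = 0.181). *Recql4* and *Dbf4*, the activating subunit of the CDC7 kinase, had log2 fold changes of 0.32 and 0.28 (adjusted p = 0.399 and 0.365).

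GINS, the third part of the active helicase beside CDC45 and the ring, had 2 of 4 genes higher and 2 lower, all with overlap. After quantile normalization 1 was higher and 3 were lower, and after TPM rescaling 4 of 4 were higher. *Gins4* and *Gins2* had log2 fold changes of -0.20 and 0.20 (adjusted p = 0.572 and 0.569), and that of *Gins4* was 0.15 after TPM rescaling. Among the 3 tested genes of the origin recognition complex list, *Orc6* and the associated *Lrwd1* had log2 fold changes of 0.23 and -0.11 (adjusted p = 0.577 and 0.755), the latter 0.25 after TPM rescaling. *Orc3*, also tested, was higher without overlap (0.33, adjusted p = 0.377), as 38.2% of all tested genes were. The other 4 genes of that list were under the level tested. Of these, *Orc1* and *Orc2* were higher without overlap in FPKM, and *Orc4* and *Orc5* overlapped. *Orc1* had 8 and 5 reads against 23 and 46, and *Orc2* had 43 and 81 against 137 and 296.

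In the licensing control list, 4 of 4 tested genes were higher, under each of the scalings, beside 3978 of all 6761 tested genes as deposited. *Kat7*, the acetyltransferase that acts on chromatin at origins, had an FPKM of 2.31 and 2.56 against 4.11 and 5.19 (log2 fold change 0.71, adjusted p = 0.130). *Gmnn*, which encodes the CDT1 inhibitor geminin, had 7.04 and 10.4 against 12.7 and 9.55 (0.32, adjusted p = 0.476). As for *Cdt1*, the *Gmnn* value of CD37 -/- replicate 2 lay between the controls. Of the fork protection genes, *Timeless* had an FPKM of 1.40 and 2.23 against 2.84 and 3.95 (0.65, adjusted p = 0.175), and its partner *Tipin* had a log2 fold change of 0.19 (adjusted p = 0.624). The MCM paralogs *Mcm8* and *Mcm9*, which act in DNA repair, were under the level tested, with 100 and 282 reads against 239 and 413 for *Mcm8* and 270 and 315 against 479 and 730 for *Mcm9*.

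**Figure D4:**
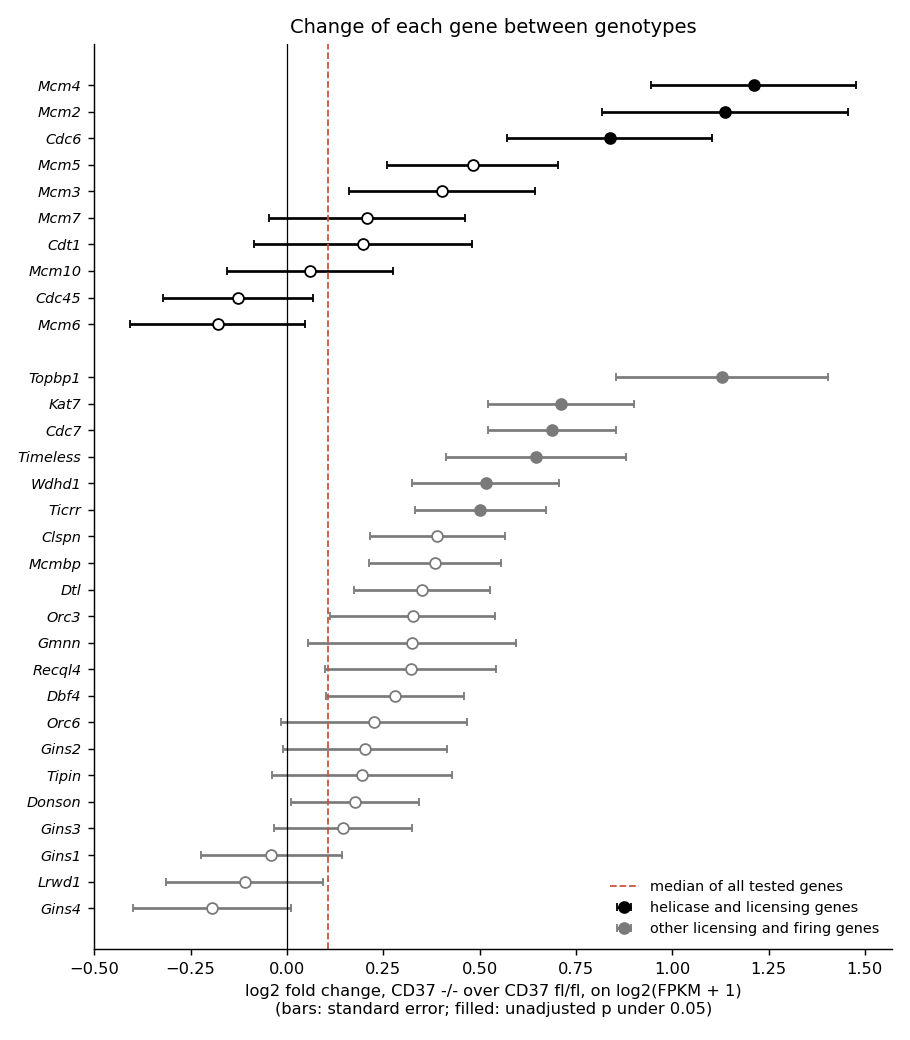
Log2 fold change of CD37 -/- over CD37 fl/fl on log2(FPKM + 1) (horizontal axis, bars for the standard error) for the 10 members (black) and the 21 tested genes of the wider list (gray), filled where the unadjusted p was under 0.05. *Mcm4*, *Mcm2*, *Cdc6* and *Topbp1* lie farthest to the right of the dashed median of all tested genes (0.11). *Mcm6*, *Cdc45*, *Gins4*, *Lrwd1* and *Gins1* lie to the left of 0, a side that all of them left after TPM rescaling.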

How the data were processed

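The authors deposited 1 table of FPKM values with 1 column per library. The submitters' processing notes list fastp 0.20.1, STAR 2.7.7a, featureCounts 2.0.0, edgeR and mm39, without an annotation. Gene spans of GENCODE M21 (GRCm38) gave whole reads for between 98.9% and 99.1% of low values, so its names and positions are printed (17045 of 17104 genes matched). FPKM per exon length was computed from these reads. Genes averaging at least 1 FPKM were tested as log2(FPKM + 1) with limma 3.58.1 (R 4.3.3, lmFit and eBayes with trend), CD37 -/- minus CD37 fl/fl, with Benjamini-Hochberg adjustment over 6761 genes and a threshold of 0.05. Code was tested on simulated data. Members and lists were chosen with earlier results of these data known. All members were named, and of the wider list those at an unadjusted p under 0.05 and the 2 most abundant of each sub-list. *Orc1* to *Orc5* were named as well, to show the whole origin recognition complex list. Ring shares and the promoter search were chosen after values were seen. Replicates differed by more than sampling noise (chi-square per degree of freedom 103 and 68.4). Alternatives changed pseudocount, filter, scaling, variance estimation, length, block, test and the libraries included. The result of 1 marker list is not reported here.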

Additional observations from a re-analysis of the deposited data

How the results depend on the processing

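The number of tested genes at an adjusted p under 0.05 was 0 as reported, and 45 with the minimum raised to 5 FPKM, 46 after division by the upper quartile, 88 with robust estimation, 16 with FPKM per exon length and 73 with the replicate block, none of them a member. The deviations of same-numbered libraries had a correlation of -0.04 over 6761 genes, a single value that cannot tell whether a pairing affects some genes. In the paired fit with the replicate block, 3 members kept an unadjusted p under 0.05, as reported. That number was 5 after TPM rescaling, which raised the count of all tested genes from 1626 to 2256. The median log2 fold change of the members was 0.69 after TPM rescaling and 0.13 after upper quartile division, against 0.30. It was 0.14 (without CD37 fl/fl replicate 1) to 0.47 (without CD37 fl/fl replicate 2) with 1 library left out. Of the wider list, the number at an unadjusted p was 6 as reported, 0 with the minimum raised to 5 FPKM (5 genes tested) and 3 after quantile normalization. It was 12 after TPM rescaling (2256 of all 6761 genes), and 12 in limma-voom on 30 genes (3303 of all 13056). Its range was 2 to 7 with 1 library left out, the lowest without CD37 -/- replicate 2 (3 without CD37 fl/fl replicate 1). Of the divergent neighbours, 1 reached it after TPM rescaling, against 0. The sign turned after TPM rescaling for *Mcm6* (0.19), *Cdc45* (0.22) and *Ufd1* (0.22), and for *Mcm10* after quantile normalization (-0.11) and upper quartile division (-0.090). With 1 library left out, *Cdt1* ranged from -0.043 to 0.44 and *Mcm10* from -0.15 to 0.27, both below 0 without CD37 fl/fl replicate 1. The cause of these shifts was not tested. Where 1 library was left out, the lone library of its group was assumed to vary like the other group.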
